A study of Mus musculus with 136 samples.

Results

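The clustered protocadherins are cell-surface adhesion proteins of the cadherin superfamily, encoded in the mouse by the alpha, beta and gamma gene clusters that follow each other on chromosome 18. Members were the protein-coding genes of the mm10 annotation whose symbols begin with Pcdha, Pcdhb or Pcdhg followed by a number or by a letter and a number, which gave 57 of 21887 protein-coding genes. The alpha cluster held 14 of them, the beta cluster 22 and the gamma cluster 21. Among these, 5 are the C-type genes Pcdhac1, Pcdhac2, Pcdhgc3, Pcdhgc4 and Pcdhgc5, and the remaining gamma genes divide into 12 gamma-A and 6 gamma-B genes by their symbols. The annotated pseudogene Pcdhgb8 and the gene models Gm37013, Gm38666 and Gm38667, which run from the alpha into the gamma cluster, were not counted.

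In neurons, single cells express different combinations of these proteins, which bind their own kind across cell contacts and so let a neuron tell its own branches from those of other neurons. Each alpha and gamma gene has its own promoter and a long variable first exon that is spliced to constant exons shared by the whole cluster, whereas the beta genes each consist of a single coding exon. Promoter choice depends on the insulator protein CTCF, on cohesin and on enhancers located within and beyond the clusters, and the C-type genes are used more uniformly between neurons than the others. Polycomb repressive complex 2 (PRC2), of which SUZ12 is a core subunit, deposits H3K27me3 on silent developmental genes. H3K4me3 marks promoters, H3K27ac active promoters and enhancers, and H3K9me3 heterochromatin.

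The study used E14JU mouse embryonic stem (ES) cells of 129/Ola origin, grown in serum with LIF. Of the 136 samples in the series, 26 stood behind the 10 peak lists analysed here. SUZ12 lists came from the wild-type (WT) clone 410 and from the MCM2-2A clones 439 and 442, which carry point mutations in the histone-binding domain of the replicative helicase subunit MCM2, a protein that passes parental histones to newly copied DNA. Each SUZ12 list joined 3 replicates. Lists of histone marks were available for WT clone 410 alone. The original experiment gave H3K27me3, H3K4me3, H3K27ac and H3K9me3 with 2 replicates each, and the rescue experiment gave H3K27me3, H3K4me3 and H3K9me3 with 3 replicates each. Every group was a single clone, and a list carries neither read counts nor replicate spread, so that the depth is unknown, no test between genotypes was run, and clone and genotype cannot be told apart for WT. With 1 WT list against 2 mutant lists an exact test could not go below p = 0.333.

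The SUZ12 lists held 6298 peaks in WT 410, 7571 in clone 439 and 7840 in clone 442, so the mutant lists were the longer. All of the 1000 strongest WT SUZ12 peaks were met by a peak in each mutant list. The H3K27me3 lists were less complete by the same measure. Of the 100 strongest WT SUZ12 peaks, 49 overlapped a region of the original H3K27me3 list, 74 a region of the rescue list and 84 a region of at least 1 of them. The rescue list held no region over the HoxC and HoxD clusters, classical PRC2 targets that the original list covered at 100%. For this reason the absence of an H3K27me3 region is given below as absence from a list, not from the chromatin. Of the marker genes checked, 7 of 8 stem cell markers, Pou5f1 and Nanog among them, had both H3K4me3 and H3K27ac within 2500 bp of a gene end, as did 5 of 8 neuronal markers and 55.4% of all protein-coding genes.

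The alpha cluster extended over 258.6 kb (mm10 chr18:36930285-37188897), the beta cluster over 256.4 kb (chr18:37264998-37521419) and the gamma cluster over 180.1 kb (chr18:37661775-37841873). The 14 alpha genes end within 1240 bp of each other and the 21 gamma genes within 10 bp, so each of these shared far ends was counted once. All 57 starts are distinct. Because alpha and gamma genes nest inside each other, a single peak downstream can be counted for many genes, and the starts give the less redundant measure. A gene's start is here its lower coordinate, since the 3 clusters are transcribed in the same direction.

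SUZ12 lay over almost all clustered protocadherins in all 3 clones. Counting the gene body with 2500 bp on each side, 55 of 57 members had a SUZ12 peak in WT 410, where 22.5% of all protein-coding genes did. In clone 439 the count was 54, beside 26.2% of all genes, and in clone 442 it was 56, beside 27.7%. A peak in all 3 lists was present for 52 members, compared with 21.3% of all genes.

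Within 2500 bp of the start, 50 members had SUZ12 in WT 410, 50 in clone 439 and 52 in clone 442. The shares among the 17492 genes with a known strand were 17.7%, 20.8% and 22.3%. All 3 lists agreed on 45 starts, or 11 of 14 in alpha, 17 of 22 in beta and 17 of 21 in gamma, where 16.7% of all such genes had SUZ12 in every list. Among the 45, the window of Pcdhb14 held only the edge of the Pcdhb13 peak in clone 439. Its first 2500 bp had SUZ12 in WT at 5.26 and in clone 442 at 7.6, and none in clone 439. The other 12 starts are described individually below.

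**Figure D1:**
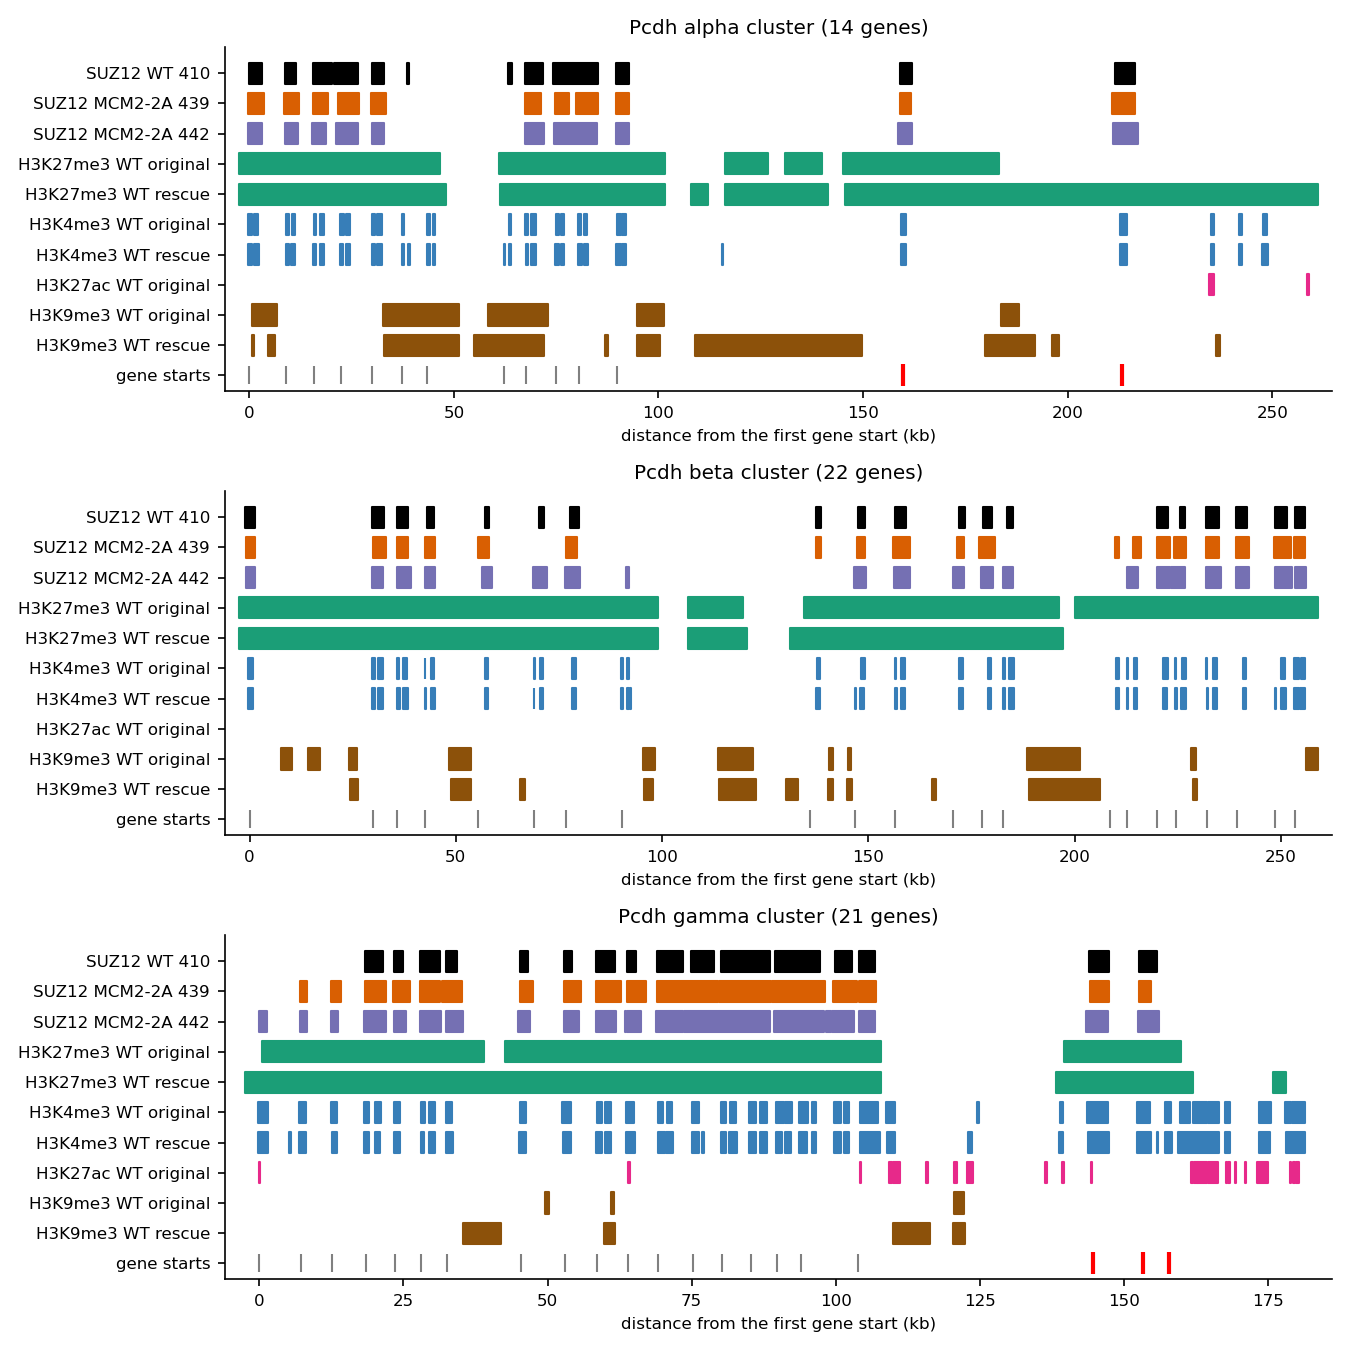
Peaks of the 10 lists over the alpha, beta and gamma clusters, one row per list, with distance from the first gene start in kb; grey ticks are gene starts and red ticks the 5 C-type starts. SUZ12 and H3K4me3 peaks recur at most starts, H3K27me3 regions run across many genes, and H3K27ac is crowded at the far end of the gamma cluster.

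SUZ12 peaks differed in strength by subgroup. Strength is given as fold enrichment over the ChIP background, as the peak caller reports it, and the median over all peaks was 13.44 in the WT list, 12.37 in the clone 439 list and 11.15 in the clone 442 list. A summit was assigned to a member when it fell between 500 bp before and 3000 bp after the start. By this assignment 40 members had their own summit in all 3 lists, and their median fold enrichment was 13.8 in WT, 16.4 in clone 439 and 16.2 in clone 442. The beta genes had lower peaks than the alpha and gamma-B genes: among members with a summit in all lists, the WT median was 11.9 over 16 beta genes, 19.8 over 8 alpha genes and 20.9 over 6 gamma-B genes. The ranges overlapped, from 6.18 to 17.8 in beta, 11.3 to 34.9 in alpha and 13.7 to 53.7 in gamma-B genes. The lowest WT median was that of the gamma-A genes, 9.27 over 6 genes with a range of 5.95 to 17.4. The 4 C-type genes had a WT median of 15, with a range of 9.59 to 65.4.

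Pcdhac2, the last variable gene of the alpha cluster, had the strongest SUZ12 peak of all members in each list. Its fold enrichment was 65.4 in WT 410, 62.5 in clone 439 and 48.9 in clone 442, so both mutant values were below that of WT. The peak ranked 418 of 6298 in WT, 470 of 7571 in clone 439 and 516 of 7840 in clone 442. The other C-type gene of the cluster, Pcdhac1, had the opposite order, with 14.7 in WT, 18.6 in clone 439 and 23.5 in clone 442.

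Within the alpha cluster Pcdha12 and Pcdha11 came next in WT. Pcdha12 had a fold enrichment of 34.9 in WT, 32.0 in clone 439 and 34.4 in clone 442. At Pcdha11 the values were 31.5, 32.3 and 28.2 in the same order. At Pcdha11 the WT value lay between those of the mutant clones, and at Pcdha12 both mutant values were slightly below WT.

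In the beta cluster the highest WT values belonged to Pcdhb21, Pcdhb19 and Pcdhb17. Pcdhb21 had 17.8 in WT, 21.5 in clone 439 and 20.1 in clone 442. Pcdhb19 had 16.8, 19.2 and 15.0, and Pcdhb17 had 16.7, 19.5 and 15.4. For both Pcdhb19 and Pcdhb17 the WT value therefore lay between those of the mutant clones.

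In the gamma cluster Pcdhgb6 and Pcdhgb5 had the strongest WT peaks. Pcdhgb6 had a fold enrichment of 53.7 in WT, 32.4 in clone 439 and 31.9 in clone 442. Pcdhgb5 had 46.1 in WT, 52.4 in clone 439 and 28.4 in clone 442. Pcdhgb4 came next, with 25 in WT, 33.8 in clone 439 and 33.6 in clone 442. These 3 gamma-B genes thus moved in different directions between genotypes. Pcdhgb6 was lower in both mutant lists, Pcdhgb4 higher in both, and Pcdhgb5 was on either side of WT.

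**Figure D2:**
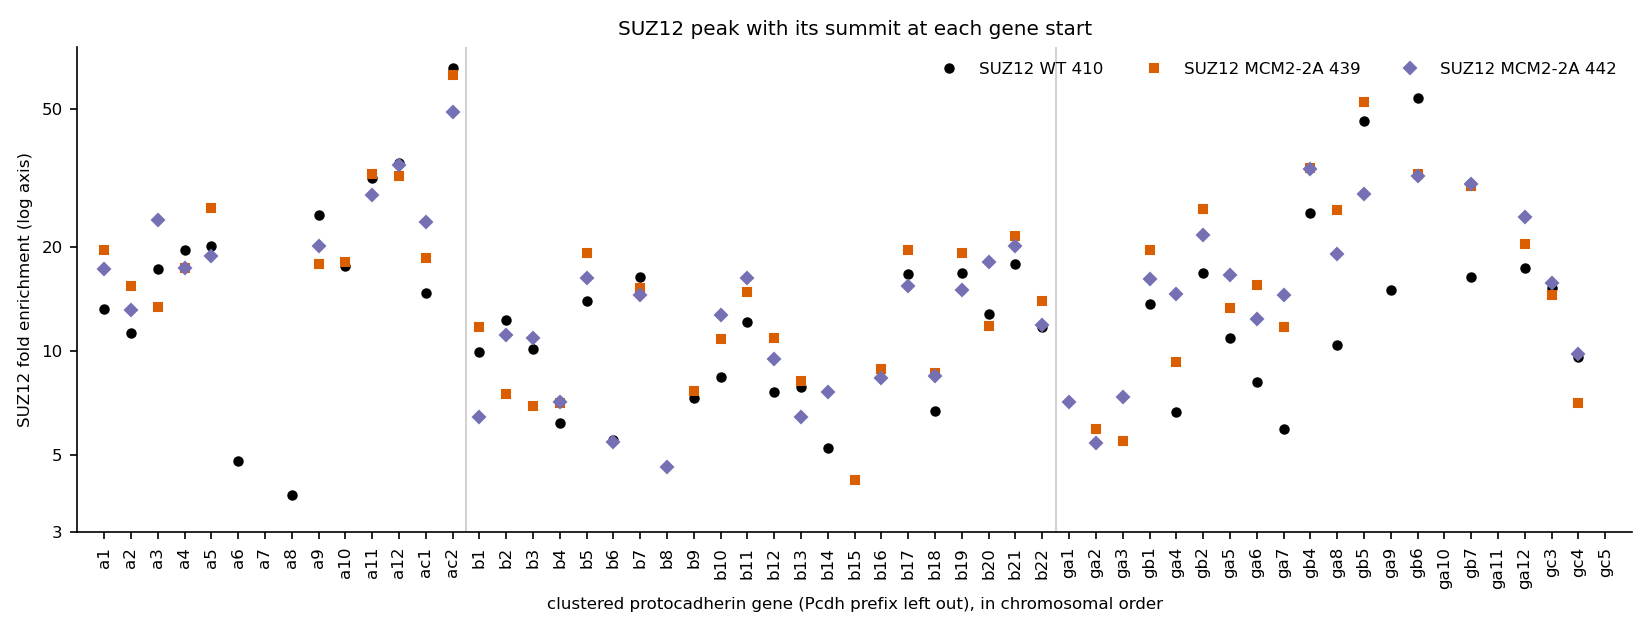
Fold enrichment of the SUZ12 peak with its summit at each of the 57 members (log axis), in chromosomal order, for WT 410 (black circles), MCM2-2A 439 (orange squares) and MCM2-2A 442 (purple diamonds); grey lines separate the clusters, and a missing symbol means that the list held no such summit. Pcdhac2 stands at 65.4 in WT, and the gamma-A genes from Pcdhga4 to Pcdhga8 are higher in both mutant lists than in WT.

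A comparison of SUZ12 strength between genotypes was possible at 40 merged sites over the clusters that had a peak in all 3 lists. Fold enrichment was higher in both mutant lists than in WT at 22 of the 40 sites, where 43.3% of the 5366 such sites in the genome were, and lower in both at 7, beside 25.4% in the genome. The clusters differed: 3 of 10 sites were higher in both mutant lists over alpha, 8 of 16 over beta and 11 of 14 over gamma. The median ratio to WT over the gamma sites was 1.38 in clone 439 and 1.37 in clone 442. Over all 5366 sites it was 1.12 and 1.01, and over the alpha sites 0.991 and 0.962.

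With each fold divided by its list's median at these sites, 11 of the 14 gamma sites were higher in both mutant lists, beside 30.6% in the genome. These comparisons were chosen after the values had been seen, and the 2 mutant clones are the only measure of spread.

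Of the 12 gamma-A genes, 6 had their own summit in every list: Pcdhga4, Pcdhga5, Pcdhga6, Pcdhga7, Pcdhga8 and Pcdhga12. Within the gamma cluster these were the most uniform in direction, as all 6 were higher in both mutant lists than in WT. Their median fold enrichment was 9.27 in WT, 14.4 in clone 439 and 15.6 in clone 442. Pcdhga8 had 10.4 in WT, 25.5 in clone 439 and 19.1 in clone 442. Pcdhga7 had 5.95, 11.7 and 14.5. The WT range of these 6 genes was 5.95 to 17.4, and it overlapped the mutant ranges of 9.31 to 25.5 and 12.4 to 24.4. The other gamma-A genes were mixed. Pcdhga9 and Pcdhga10 shared a merged site with Pcdhgb5 and Pcdhgb6 that was lower in both mutant lists, at 53.7 in WT, 52.4 in clone 439 and 31.9 in clone 442. Pcdhga11 shared a site with Pcdhgb7 that was higher in both, at 16.3, 29.9 and 30.3. Pcdhga1, Pcdhga2 and Pcdhga3 had no WT peak. Of the gamma-B genes, 4 of 6 were higher in both mutant lists, of the beta genes 8 of 16, and of the alpha genes 2 of 8.

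The length under SUZ12 peaks was greater in both mutant lists than in WT over gamma and beta, and not over alpha. Unlike for fold enrichment, gamma did not lead beta by this measure. Peaks covered 55.3 kb of the gamma cluster in WT, 70.2 kb in clone 439 and 70.7 kb in clone 442, which is 1.27 and 1.28 times the WT length. Over the beta cluster the lengths were 39.8, 50.5 and 58.7 kb, or 1.27 and 1.48 times WT. Over the alpha cluster they were 47.1, 44.7 and 46.5 kb, with ratios of 0.949 and 0.987. The same ratios for the whole genome were 1.18 and 1.24, so the gamma lengths grew only slightly more than the lists as a whole, while the alpha lengths did not grow.

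Several starts changed list membership between clones. Pcdhga2, Pcdhga3 and Pcdhb16 had SUZ12 in clones 439 and 442 but not in WT, that is 3 of 57 members beside 2.58% of genes in the genome. Pcdhga2 had a fold enrichment of 5.94 in clone 439 and 5.44 in clone 442. Pcdhga3 had 5.51 and 7.37, and Pcdhb16 had 8.84 and 8.38. All of these values were below the median of their lists, and with the 6298 strongest peaks of each list Pcdhb16 alone kept the pattern. The neighbouring Pcdhga1, the first gene of the gamma cluster, had a peak in clone 442 alone, at 7.11.

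Pcdha6 and Pcdha8 had SUZ12 in WT and in neither mutant list, which is 2 members beside 0.194% of genes in the genome. Both WT peaks were weak, with a fold enrichment of 4.82 at Pcdha6, rank 5786 of 6298, and 3.84 at Pcdha8, rank 6033. With a window of 1000 bp neither gene had a peak of this kind. Pcdha7, which lies between them, was the sole member whose start had no SUZ12 in any list. By gene body, where downstream peaks count too, no member was found in WT alone and Pcdhb15 alone was shared by the mutant lists and missing from WT, beside 0.256% and 3.08% of all genes.

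The remaining differences did not follow genotype. At Pcdhb9 a peak was listed in WT at 7.32 and in clone 439 at 7.66, and none in clone 442. At Pcdhb6 a peak was listed in WT at 5.52 and in clone 442 at 5.47. Pcdhb15 had a peak in clone 439 alone at 4.24, and Pcdhb8 in clone 442 alone at 4.63. For Pcdhgc5, the last variable gene of the gamma cluster, the window held the edge of the Pcdhgc4 peak in WT and clone 442, and its first 2500 bp had no SUZ12 in any list. Pcdhgc4 itself had 9.59 in WT, 7.07 in clone 439 and 9.81 in clone 442, and Pcdhgc3 had 15.2, 14.5 and 15.7.

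In merged sites, the clusters held 40 SUZ12 sites common to all 3 lists, 3 shared by the mutant lists, 2 of WT alone, 1 of WT and clone 439, 2 of WT and clone 442, 1 of clone 439 alone and 5 of clone 442 alone. Both WT-only sites were in the alpha cluster, while the sites shared by the mutant lists were 1 in beta and 2 in gamma. Of all 8774 SUZ12 sites in the genome, 61.2% were common, 10.8% shared by the mutant lists and 2.43% of WT alone.

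The position of the SUZ12 summit inside the gene separated the subgroups, and did so in each clone. In WT the median distance from the start to the summit was 1505 bp over 11 alpha genes, 1904 bp over 19 beta genes and 1860 bp over 6 gamma-B genes, but 355 bp over 7 gamma-A genes and 500 bp over 4 C-type genes. For the gamma-B genes all 6 summits lay between 1758 and 2027 bp. In clone 439 the medians were 1538 bp for alpha, 1878 bp for beta, 1826 bp for gamma-B and 328.5 bp for gamma-A. In clone 442 they were 1673, 1832, 1855 and 368 bp. The gamma-A and gamma-B genes alternate along the chromosome, so that neighbours such as Pcdhga4 (341 bp in WT) and Pcdhgb2 (1758 bp) had summits at different depths.

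Exceptions were few and recurred in every list. Among beta genes Pcdhb1, which stands apart upstream of the rest of its cluster, had its summit 1, 7 and 38 bp from the start in WT, clone 439 and clone 442, while the other 18 WT summits lay 1000 bp or more inside the gene. Among alpha genes Pcdha11 (104 bp in WT) and Pcdha2 (508 bp) had summits near the start. Among gamma-A genes Pcdhga12 had its summit at 1200, 1178 and 1219 bp in the same order of lists. Positions rest on the annotated start of each gene. For the 40 members with a summit in all lists the summits of the 3 clones spread over a median of 70 bp, and 33 of them fell within 250 bp.

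The same position was measured over other genes. In WT 34 of 47 members with an own summit had it 1000 bp or more inside the start, where 20.2% of 2805 genes with strand did. This comparison was also chosen after the positions had been seen.

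**Figure D3:**
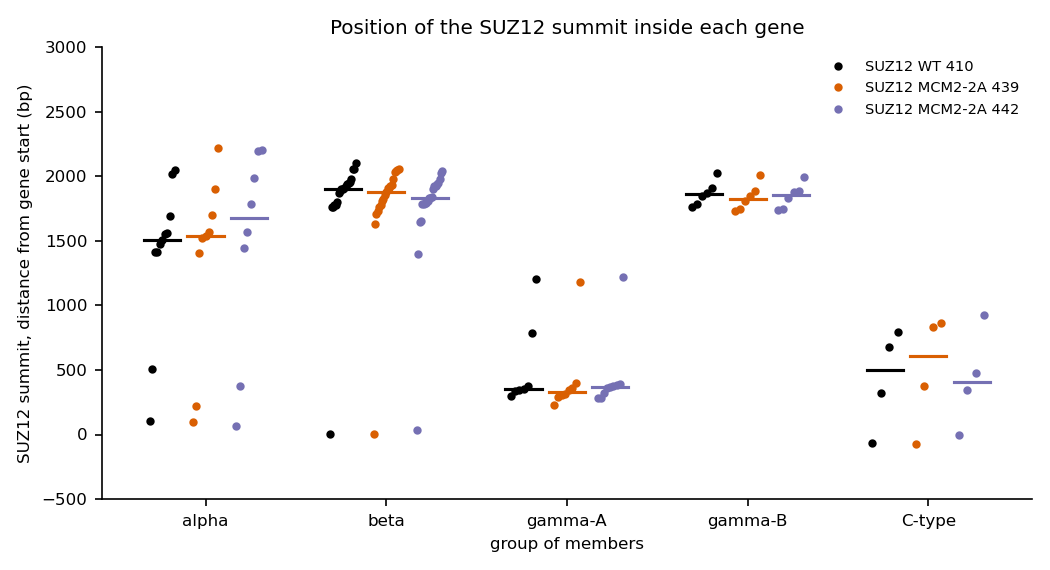
Distance in bp from each member's start to its SUZ12 summit, by group of members, with points for genes and bars for medians in WT 410 (black), MCM2-2A 439 (orange) and MCM2-2A 442 (purple). Alpha, beta and gamma-B summits lie mostly 1000 bp or more inside the gene, while gamma-A and C-type summits lie mostly within 1000 bp of the start.

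H3K4me3 was present at every member. All 57 starts had an H3K4me3 peak within 2500 bp in the original and in the rescue experiment, where 71.2% and 72.5% of all genes with strand did. By gene body the count was also 57 in both, beside 78.1% and 79.4% of all genes. Peaks were divided into those whose centre lay less than 1000 bp inside the start and those with the centre 1000 to 3000 bp inside. The gamma genes carried the strongest peaks at the start, with a median fold enrichment of 73.5 over 11 gamma-A and 75.2 over 6 gamma-B genes in the original experiment. The highest value, 98.0, belonged to Pcdhga1. Alpha genes had a median of 33.8 over 11 genes, and the 12 beta genes with a peak at the start 17.8.

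The inner peak was strongest in the beta genes in the original list. Of the 22 beta genes, 21 had an inner H3K4me3 peak, with a median of 31.6 and the highest value, 63.3, at Pcdhb18. It was stronger than the peak at the start in all 11 beta genes that had both, and was alone in 10 more. In alpha and gamma-B genes the inner peak was the weaker in every gene that had both, with medians of 10.9 and 23.1. Most gamma-A genes, 9 of 12, had a peak at the start alone. Altogether the inner peak led or was alone in 24 of 57 members, where it did in 22.9% of 11662 genes with strand and a peak in either stretch.

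In the rescue experiment 50 of 57 members had the same class of H3K4me3 peaks. The inner peak was stronger in all 13 beta genes with both peaks, the peak at the start was stronger in all 6 gamma-B genes, and among 12 alpha genes it was stronger in 11, with Pcdha8 the exception. In the 29 members that had both peaks in both experiments the stronger of them was the same in 29. At Pcdhgc5 the inner peak was the stronger in the original list, at 54.6, and the start peak reached 13.9 in the rescue list. The rescue list also held a peak of 58 that reached into the first 2500 bp. That peak was 7.118 kb long with its centre beyond 3000 bp, so it was not counted as an inner peak. Pcdhac1 and Pcdhac2 had a start peak alone in either experiment, at 43.2 and 42.3 in the original and 59.8 and 55.2 in the rescue list, while Pcdhgc3 reached 80.7 and 80.3.

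**Figure D4:**
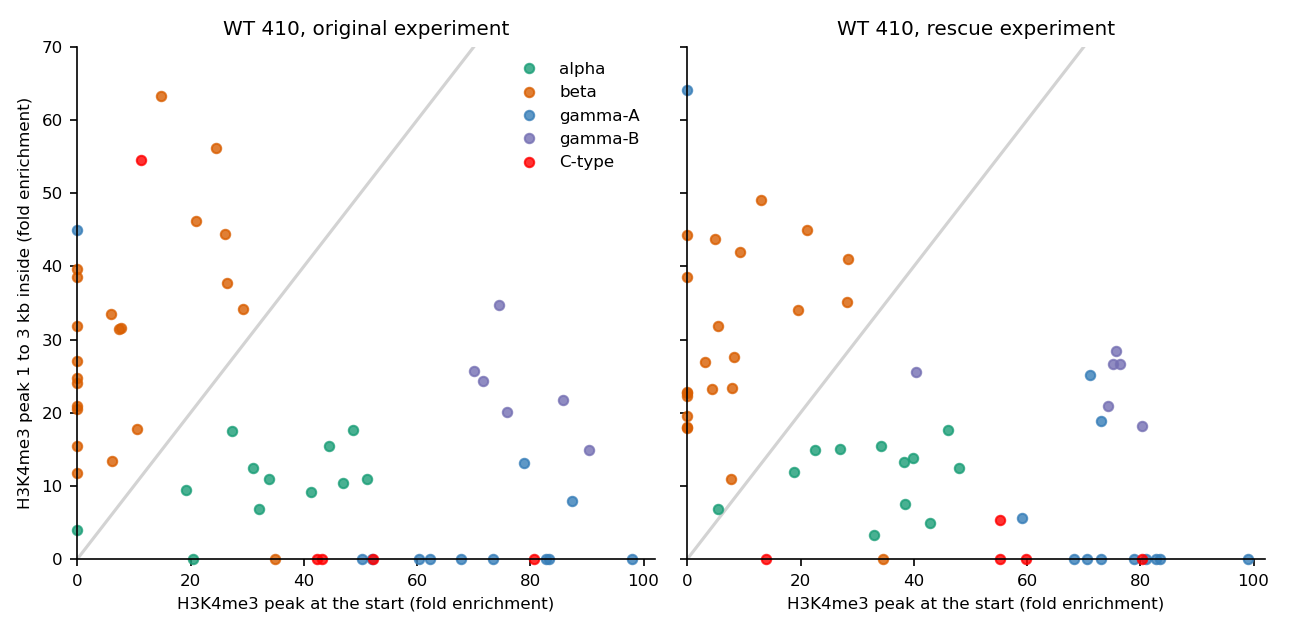
Fold enrichment of the H3K4me3 peak 1000 to 3000 bp inside the gene against that of the peak at the start. Each point is a member, in the original and rescue experiments of WT 410. A value of 0 means that no peak with its centre in that stretch was listed, and the grey line marks equal values. Beta genes with both peaks lie above the line in both experiments, and gamma-B genes lie below it.

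All WT summits of members but that of Pcdha6 lay in these H3K4me3 peaks, as did 94.3% of all WT SUZ12 summits in the genome, and the members differed in which of the peaks held the summit. Of 47 WT summits 33 fell inside an inner H3K4me3 peak of the original list, 13 inside a peak at the start and 1, at Pcdha6, outside both. The inner peak held 18 of 19 beta summits, 8 of 11 alpha summits and 6 of 6 gamma-B summits, and the start peak 6 of 7 gamma-A and 4 of 4 C-type summits. Most alpha and all gamma-B genes therefore had their SUZ12 summit in the weaker of their H3K4me3 peaks, whereas beta genes with both peaks had it in the stronger. In the mutant lists the counts were 32 inside inner peaks in both clones, and 14 and 15 inside start peaks. No H3K4me3 list of the mutant clones was analysed here, so these mutant summits were compared with WT H3K4me3.

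H3K27me3 lay across the clusters in long regions. In the original experiment 56 of 57 members had a region within 2500 bp of the start, where 27.2% of genes with strand did. In the rescue experiment the count was 49, beside 47.7%. The counts by gene body were the same, 56 and 49, beside 40.1% and 59% of all genes. Regions covered 55.8% of the alpha cluster, 90.1% of beta and 67.1% of gamma in the original list, compared with 13.6% of all chromosomes. The rescue list covered 89.4%, 69.5% and 73.7%, compared with 34.9%. A region of 65.3 kb over the starts from Pcdhga6 to Pcdhga12 ranked 35 of 41869 by strength in the original list, and a region of 40.6 kb over the starts from Pcdha8 to Pcdha12 ranked 37.

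The absences from the 2 lists were different genes. Pcdhac2 was the sole start without a region in the original list, although it had the strongest SUZ12 peak, and in the rescue list a region of 150 kb ran over it. The rescue list lacked the 8 starts from Pcdhb15 to Pcdhb22, which the original list covered by a region of 65.6 kb that ranked 168. SUZ12 was listed in WT at Pcdhb17 to Pcdhb22. As stated above, H3K27me3 regions were missing from the lists at many strong SUZ12 peaks, and what part this had at the 9 starts was not tested.

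With H3K4me3 at every start, the members with both marks equalled those with H3K27me3. Such bivalent starts numbered 56 of 57 in the original experiment, beside 20.8% of genes with strand, and 49 in the rescue experiment, beside 33.8%. Starts with both marks and WT SUZ12 numbered 49 of all 57 members, beside 10.7% of genes with strand. Among bivalent starts alone, 49 of 56 members had WT SUZ12, where 1879 of 3642 bivalent genes with strand did.

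**Figure D5:**
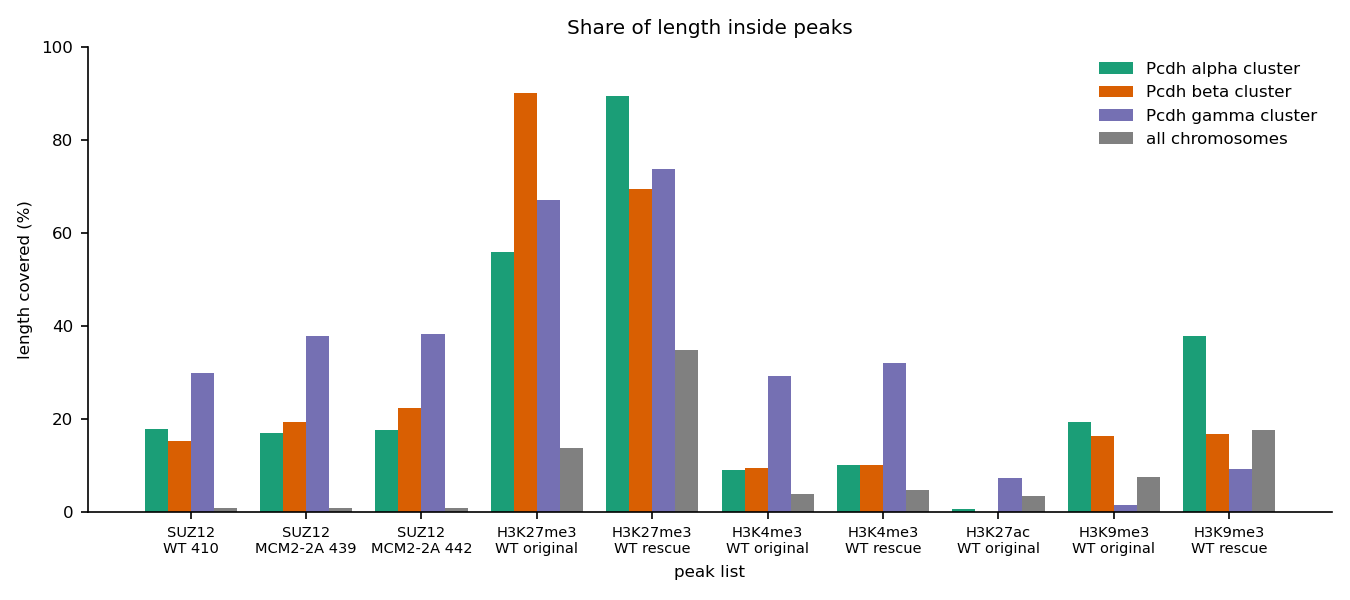
Percent of the length of each cluster, with 2500 bp on each side, that lies inside peaks of each list (bars start at 0), with the same for all chromosomes in grey. SUZ12, H3K27me3 and H3K4me3 cover more of each cluster than of the genome, and H3K27ac covers 7.29% of the gamma cluster and no part of the beta cluster.

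H3K27ac was rare at the starts. It lay within 2500 bp of 4 of 57 starts, where 52.1% of genes with strand had it, and all 4 were gamma genes. The fold enrichment was 8.63 at Pcdhga1, 5.79 at Pcdhga8, 3.78 at Pcdhga12 and 5.15 at Pcdhgc3. The peak near Pcdhgc3 lay outside the first 2500 bp of the gene. No H3K27ac peak touched the beta cluster.

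By gene body the H3K27ac count was 35 members, beside 66.1% of all genes, because all 14 alpha and all 21 gamma genes reach over peaks near their shared far ends. The alpha cluster held 2 such peaks, with 4.19 and 2.28. The gamma cluster held 23. Of these, 12 lay in the 19.8 kb between 2500 bp after the Pcdhgc5 start and the far end, which they covered at 40.8%, and the strongest of them reached 24.7. H3K4me3 covered 52.2% of the same stretch in the original list and 55.3% in the rescue list. SUZ12 was absent from it in all 3 lists, and H3K27me3 covered none of it in the original list and 20% in the rescue list. The constant end of the gamma cluster thus carried H3K4me3 and H3K27ac without SUZ12, and most of its starts H3K4me3 together with SUZ12 and H3K27me3. H3K27ac was not confined to the constant end: further peaks, of up to 12.5, lay between the Pcdhga12 and Pcdhgc3 starts.

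H3K9me3 was listed near a minority of the starts. Regions lay within 2500 bp of 12 starts in the original list, beside 8.39% of genes with strand, and of 13 in the rescue list, beside 22.9%, so that the second count was at the level of other genes. By gene body 39 members had H3K9me3 in either experiment, beside 33.8% and 58.7% of all genes. Within the first 2500 bp of the gene the same 6 members were touched in both experiments: Pcdha1, Pcdha6, Pcdha7, Pcdha8, Pcdha9 and Pcdhgb4. The shares of genes with strand touched there were 4.24% and 13.4%. The first 2500 bp of Pcdha6, Pcdha7, Pcdha8 and Pcdha9 were covered at 100% in both experiments, by regions of 18.5 and 14.7 kb in the original list, where 1.43% of genes with strand were fully covered in the original and 3.94% in the rescue list.

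These 4 genes include the 3 with the least SUZ12 in the alpha cluster. Pcdha7 had none, Pcdha6 and Pcdha8 had weak peaks in WT alone, and Pcdha9 had strong peaks of 24.6 in WT, 17.8 in clone 439 and 20.1 in clone 442. All 4 were also inside H3K27me3 regions in both lists. H3K4me3 at the start reached 20.4 at Pcdha6, 32.1 at Pcdha7 and 31.0 at Pcdha9 in the original experiment, and no peak was listed there at Pcdha8. No beta gene had H3K9me3 in its first 2500 bp in either experiment, although regions covered 16.3% and 16.7% of the beta cluster. The gamma cluster was covered at 1.47% and 9.16%.

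The genes around the clusters were mostly without SUZ12. Hars, Hars2 and Zmat2 on the alpha side had no SUZ12 or H3K27me3 at their ends, and H3K4me3 of 120, 120 and 98.5 with H3K27ac. Taf7, a general transcription factor gene between the beta and gamma clusters, had H3K4me3 of 100 and H3K27ac of 21.8 and no SUZ12, and its neighbour Slc25a2 had the same H3K4me3 peak and neither H3K27ac nor SUZ12. Beyond the gamma cluster Diaph1 had H3K4me3 and H3K27ac and no SUZ12. The next genes, Hdac3 and Rell2, shared a SUZ12 peak that was in the mutant lists alone, at 7.39 in clone 439 and 5.46 in clone 442.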

How the data were processed

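Members and gene lists were chosen with earlier results of these data known. The lists held peaks that the authors called and deposited per group; per the processing notes of the submitters, cutadapt 2.5, BWA 0.7.15, Picard 2.20.7 and MACS2 2.1.0 were used with mm10. SUZ12 (sonicated, crosslinked chromatin) had been filtered for reproducibility between replicates. Histone marks came from MNase-digested native chromatin with Drosophila spike-in, and their lists were also labelled by the authors as reproducible peaks. Narrow lists were deposited with a score, a fold enrichment (ratio to background), −log10 p-value and −log10 q-value by the authors; broad lists were deposited with an unnamed strength score, used for ranking alone. No comparison columns were used, and 0 columns of other samples were present.

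Peaks were intersected with RefSeq genes (GRCm38.p6, the assembly behind mm10) by at least 1 bp, using Python 3.11.15, numpy 2.4.6 and pandas 2.3.3. Overlap code was checked on simulated intervals. Shares of genes at starts used the 17492 genes whose strand was given. Strand was not given for chromosome 18, so these shares leave out the members themselves. Sites were overlapping SUZ12 peaks of the 3 lists merged. Named genes were members whose SUZ12 differed between WT and both mutant lists or was absent from all, the 3 strongest per cluster in WT, the C-type genes, members with H3K27ac at the start and those with most H3K9me3. The treatment of reads matching several similar members was not given in the sources used here.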

Additional observations from a re-analysis of the deposited data

How the results depend on the processing

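No paired analysis was possible because each list joins its replicates, and leaving out a replicate was impossible for the same reason. Of 155 values recomputed for 38 results, 127 stayed within 1.5 times the reported value, 28 did not and 0 reversed. The counts of SUZ12 at members and starts were stable except with the stronger part (50%) of each list by q-value, which left 30 WT starts and 22 common sites. Starts shared by the mutant lists numbered 1 with 6298 peaks per list and 5 with the stronger part; of WT alone, 0 with a window of 1000 bp and 0 with the stronger part. By gene body, mutant-shared members numbered 3 with gene ends alone and 0 with equal lists, and WT-only members 2 and 1. Mutant-shared sites numbered 6 with 50% reciprocal overlap, 1 with equal lists and 8 with the stronger part; WT-only sites 6 with reciprocal overlap and 0 with the stronger part. Sites lower in both mutant lists numbered 12 over the clusters with scaled fold and 1 by rank, and 3 and 0 over gamma; ranks of common sites shift with the longer mutant lists and support nothing here. H3K9me3 reached 17 members with gene ends alone, and 6 starts with 1000 bp, 3 with the nearest start, 7 with the stronger part and 6 in the first 2500 bp. Giving each H3K27me3 region to the nearest start left 5 starts, since a long region has a single midpoint. The rescue lists covered 89.4% of alpha for H3K27me3, and for H3K9me3 37.8% of alpha and 9.16% of gamma. The cause of the other changes was not tested. Depth is unknown, so that weak peaks limit every statement on absence.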

Other observations

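Most protocadherin genes outside the clusters had SUZ12 too. Of 12 such genes, 11 had SUZ12 within 2500 bp of a gene end in each of the 3 lists, where 20.6% of all protein-coding genes did in WT, and all 12 had H3K4me3 in both experiments. Pcdh17 had the highest WT fold enrichment, at 103, with 88.5 in clone 439 and 56.1 in clone 442, and Pcdh10 had 90.1, 83.8 and 70.6. Both were therefore above Pcdhac2 in all 3 lists. Pcdh12 was the gene without SUZ12, and Pcdh1 the single gene with H3K27ac.

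Most genes that act on the clusters had active marks. Of 20 genes for CTCF, cohesin, DNA methylation and H3K9 methylation factors, 18 had both H3K4me3 and H3K27ac at an end, and 2 had WT SUZ12: Wiz at 13.0 and Setdb1 at 9.01. Over all protein-coding genes the shares were 55.4% and 20.6%. Dnmt3b, a de novo DNA methyltransferase gene, had SUZ12 in the mutant lists alone, at 10.4 in clone 439 and 9.98 in clone 442. Of 12 genes for intracellular partners of the protocadherins, 10 had both active marks, beside 55.4%, and 3 had WT SUZ12, beside 20.6%. The highest were Cyfip2, of the WAVE complex, at 7.14 and Fyn, a kinase, at 7.07.

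The Hox clusters were covered by SUZ12 more fully than the protocadherin clusters. WT SUZ12 covered 99.5% of HoxA, 58.8% of HoxB, 94.2% of HoxC and 66.7% of HoxD, compared with 17.9% of Pcdh alpha, 15.2% of beta and 29.9% of gamma. The strongest WT peaks there reached 86.7 to 127, above the 65.4 of Pcdhac2.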
